A study of Mus musculus with 6 samples.

Results

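The interferon receptor, Stat and Irf signalling genes examined here were Ifnar1, Ifnar2, Jak1, Tyk2, Stat2, Irf1, Irf3, Irf7 and Irf9. They were taken by symbol from a Cuffdiff gene table, and the 9 genes are 9 of the 53797 that it lists. RNA came from MLO-Y4, an osteocyte-like mouse cell line, with 3 cultures stimulated by low-intensity pulsed ultrasound (LIPUS) and 3 untreated Control cultures. LIPUS lasted 20 min at 1.5 MHz in pulsed-wave mode and 30 mW/cm2, and RNA was taken 30 min after it ended. All cultures grew in α-MEM with 10% fetal bovine serum, and according to the methods the Control wells shared plates with the treated wells, over unplugged transducers. The study's results also state that a Control library lay apart from the other Control libraries in a principal component analysis. The authors propose that ultrasound leaking into Control wells may have caused this variation, which was not tested here. The table gives the authors' pooled FPKM (fragments per kilobase of exon, scaled to the number of mapped fragments) of each group and no value of a single culture. No SD, test or leave-one-out value can be computed from these pooled values, the table's own test columns hold the authors' comparison and were not used, and how far that Control library moves a value was not tested.

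Type I interferons bind a receptor made of the chains Ifnar1 and Ifnar2, to which the tyrosine kinases Tyk2 and Jak1 are attached. The kinases phosphorylate Stat2, which is joined with Irf9 in the complex ISGF3, and ISGF3 binds the interferon-stimulated response element (ISRE) in the promoters of antiviral genes. Irf3 and Irf7 act earlier, since they switch on interferon genes when a cell senses foreign nucleic acid, and Irf1 is a factor that interferons induce through the gamma-activated site (GAS). Several of these factors, among them Stat2, Irf1, Irf7 and Irf9, are themselves known interferon-stimulated genes, so that their RNA reports on the pathway as well as serving it.

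The pooled values of the 9 genes did not all lie on the same side of Control. Of the 8 signalling genes that Cuffdiff tested, Stat2 differed most, with 23.2 FPKM in Control and 12.6 FPKM in LIPUS, a 1.85-fold lower value. Irf1 and Irf7 were also lower in LIPUS, by 1.49-fold and 1.48-fold, and Irf3 was 1.44-fold higher. The receptor chains, Jak1 and Irf9 differed by 1.23-fold or less. A gene was counted as called when its pooled FPKM differed by at least 1.5-fold and its status was OK, the mark Cuffdiff gives a gene it tested. Among the 8 signalling genes with that status, 1 was called lower (Stat2) and 0 higher, where 4.71% of all 8145 genes with status OK were at least 1.5-fold lower and 4.70% at least 1.5-fold higher.

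**Figure D1:**
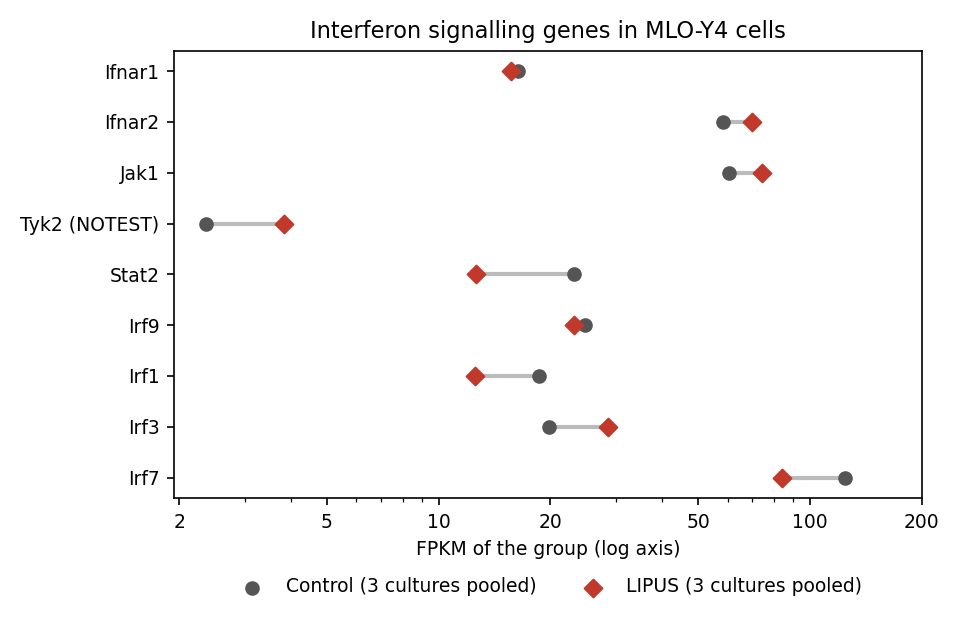
Pooled FPKM of the 9 genes on a log axis, with grey circles for Control, red diamonds for LIPUS and a bar joining the 2 values of a gene. No error bars exist for pooled values. Stat2, Irf1 and Irf7 lie lower in LIPUS (Stat2 from 23.2 to 12.6 FPKM), and Irf3, Jak1, Ifnar2 and the untested Tyk2 lie higher.

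The promoters of these genes were searched for the letters of the ISRE, which are GAAA, any 2 bases and GAAA again, and of the GAS, TTCNNNGAA with N as any base, on both strands. Windows ran from 250 bases before to 50 bases after each transcript start of RefSeq (GRCm38.p6), and all 9 genes had at least 1 window, 11 in all. ISRE letters stood in 1 of the 9 genes, Stat2, against 3.99% of all 27025 genes with a window. GAS letters stood in 3 of the 9 genes, Irf1, Ifnar2 and Ifnar1, against 9.55% of all genes. No ISRE match overlapped a GAS match in these windows. The 250 bases before the start are shown for the 3 genes whose match lies wholly upstream of it, in lower case and on the plus strand, with the matched letters in capitals (ISRE in Stat2, GAS in Irf1 and Ifnar2).
Stat2, chr10:128270248-128270497: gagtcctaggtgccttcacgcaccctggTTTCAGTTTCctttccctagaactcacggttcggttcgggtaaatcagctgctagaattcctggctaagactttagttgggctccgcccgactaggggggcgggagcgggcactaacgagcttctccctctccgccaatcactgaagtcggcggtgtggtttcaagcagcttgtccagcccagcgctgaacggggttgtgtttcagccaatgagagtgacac
Irf1, chr11:53769764-53770013: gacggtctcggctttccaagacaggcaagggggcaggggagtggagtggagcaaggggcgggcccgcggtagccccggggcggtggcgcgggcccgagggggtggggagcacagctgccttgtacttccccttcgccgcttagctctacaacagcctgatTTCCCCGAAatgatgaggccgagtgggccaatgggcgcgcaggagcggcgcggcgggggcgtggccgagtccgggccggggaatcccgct
Ifnar2, chr16:91372533-91372782: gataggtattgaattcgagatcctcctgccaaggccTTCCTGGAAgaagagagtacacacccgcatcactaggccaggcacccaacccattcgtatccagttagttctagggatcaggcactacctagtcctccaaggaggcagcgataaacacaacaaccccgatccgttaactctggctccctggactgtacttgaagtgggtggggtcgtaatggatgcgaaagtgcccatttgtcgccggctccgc
The Stat2 match, read as TTTCAGTTTC because it lies on the opposite strand, covers bases -222 to -213, counted from the first transcribed base as 0. In Irf1 the GAS letters TTCCCCGAA cover bases -90 to -82, and in Ifnar2 the letters TTCCTGGAA cover bases -214 to -206. The Ifnar1 match, TTCACGGAA, straddles the start from -5 to 3. Both windows of Irf9, the second window of Irf1, and those of Jak1, Tyk2, Irf3 and Irf7 held neither set of letters. A match of letters is a description and does not show that a factor binds there. A window without a match does not show that a gene lacks a site. Of the interferon-stimulated genes listed below, 11 of 25 with a window held ISRE letters.

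**Figure D2:**
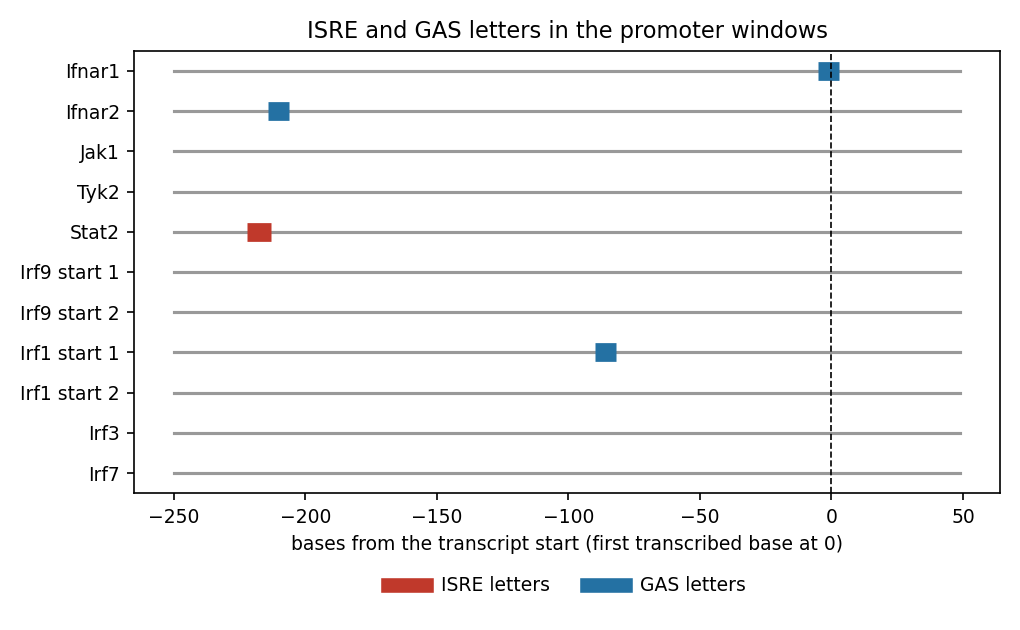
Positions of ISRE letters (red) and GAS letters (blue) in the promoter windows of the 9 genes, in bases from the transcript start, which is marked by a dashed line. A grey line is a searched window, and genes with 2 starts have 2 lines. The ISRE letters lie in the Stat2 window, from -222 to -213.

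The receptor chains and Jak1 differed by less than 1.5-fold in pooled level, and Cuffdiff did not test their other kinase, Tyk2. Ifnar1, the signalling chain to which Tyk2 binds, lies on chromosome 16 from 91485238 to 91507441 (GRCm38, GENCODE M21) and had 16.4 FPKM in Control and 15.7 FPKM in LIPUS (log2 ratio -0.06). Ifnar2, the chain to which Jak1 binds, lies on the same chromosome from 91372783 to 91405589 and had 58.2 FPKM in Control and 69.7 FPKM in LIPUS (log2 ratio 0.26). The level of Ifnar2 was thus 3.55 times that of Ifnar1 in Control and 4.43 times in LIPUS. Among all genes with status OK, the log2 ratio of Ifnar1 stood at percentile 40.9 and that of Ifnar2 at percentile 82.0. Il10rb, a receptor chain gene whose start lies 575 bases beyond the end of Ifnar2, had 18.2 FPKM in Control and 21.6 FPKM in LIPUS, with a log2 ratio of 0.25. Gm21970, annotated on the same strand, shares 315 exonic bases with Ifnar2 and is listed at 0 in both groups, so reads of these bases could have been assigned to either.

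Jak1, a kinase shared by many cytokine receptors, lies on chromosome 4 from 101152367 to 101265282. Its pooled level was 60.4 FPKM in Control and 74.1 FPKM in LIPUS, a log2 ratio of 0.29, at percentile 84.5 of the genes with status OK. Tyk2, its partner on the interferon receptor, lies on chromosome 9 from 21104068 to 21131243 and was the least abundant of the 9 genes. Tyk2 had 2.36 FPKM in Control and 3.82 FPKM in LIPUS, a log2 ratio of 0.70, but its status was NOTEST, so that Cuffdiff made no comparison. All genes with status OK reached 6.70 FPKM or more in 1 group, a level that Tyk2 did not reach. With a pseudocount of 1 FPKM its log2 ratio was 0.52, which no longer amounts to 1.5-fold. The antisense gene 1700084C06Rik shares 554 of the 6865 exonic bases of Tyk2, and it was lower in LIPUS, with 6.02 FPKM in Control and 4.06 FPKM in LIPUS. The libraries were stranded, but whether strand entered the FPKM is not given in the sources used here, so the reads of the 2 genes may not be cleanly separated. The FPKM of Jak1 was 25.7 times that of Tyk2 in Control and 19.4 times in LIPUS.

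Stat2 and Irf9, both subunits of ISGF3, had unlike pooled ratios. Stat2, whose promoter holds the ISRE letters shown above, lies on chromosome 10 from 128270559 to 128292849. Its log2 ratio was -0.88, a difference of -10.6 FPKM (LIPUS minus Control), and 123 of the 8145 genes with status OK had a more negative log2 ratio. Irf9, the subunit that recognises the ISRE, lies on chromosome 14 from 55603571 to 55610030. Irf9 had 24.7 FPKM in Control and 23.1 FPKM in LIPUS, a log2 ratio of -0.10 at percentile 35.1. In Control the levels of Stat2 and Irf9 were nearly equal, with a Stat2 to Irf9 ratio of 0.940, and in LIPUS this ratio was 0.544. With no replicate values, whether Stat2 and Irf9 differed from each other in their response beyond the spread between cultures cannot be tested. Rnf31, a neighbour on the same strand with 5.93 FPKM in Control and 5.24 FPKM in LIPUS, shares 123 exonic bases with Irf9. No annotated gene overlaps Stat2, and Apof, which ends 406 bases before it, is listed at 0 in both groups.

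The remaining interferon regulatory factors did not reach the 1.5-fold limit, and their pooled values lay on both sides of Control. Irf7, the factor that drives the later, amplifying wave of interferon genes, lies on chromosome 7 from 141262706 to 141266481 and was the most abundant of the 9 genes in both groups. It had 124 FPKM in Control and 84.0 FPKM in LIPUS, a log2 ratio of -0.56, and 426 of the 8145 genes had a more negative one. Irf1, whose promoter holds the GAS letters shown above, lies on chromosome 11 from 53770014 to 53778374. Irf1 had 18.6 FPKM in Control and 12.5 FPKM in LIPUS, a log2 ratio of -0.57 at percentile 5.08. Irf3, a factor that is present before infection and is activated by phosphorylation, lies on chromosome 7 from 44997648 to 45002848. Irf3 had 19.8 FPKM in Control and 28.5 FPKM in LIPUS, a log2 ratio of 0.53 at percentile 94.1, so that 480 genes had a more positive one. As Irf7 was lower and Irf3 higher, the Irf7 to Irf3 ratio was 6.26 in Control and 2.94 in LIPUS.

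Overlaps with neighbours were small for these factors. Irf3 shares 88 exonic bases with Bcl2l12, which starts within it on the opposite strand and had 9.50 FPKM in Control and 9.56 FPKM in LIPUS. Irf7 shares 45 exonic bases with the end of Phrf1, also on the opposite strand, at 25.6 FPKM in both groups. Gm17334, on the strand opposite Irf1, shares 135 exonic bases with it and is listed at 0.

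Irf1 and Irf7 fell just short of the 1.5-fold limit and Stat2 passed it, so the count of called genes turned on that limit. With a limit of 0.32 on the log2 scale in its place, 3 of the 8 genes were lower (Stat2, Irf1 and Irf7) and 1 was higher (Irf3), where 13.4% of the genes with status OK were lower and 13.6% higher. With 2-fold, 0 of the 8 were called in either direction, where 0.945% of the genes with status OK were lower and 1.08% higher. When the FPKM of each group were rescaled to the same sum, Irf1 (-0.62) and Irf7 (-0.61) passed 1.5-fold and 3 genes were lower, beside 5.70% of all genes with status OK. Each of the 9 genes kept its sign under every pseudocount and scaling tried, but these settings could not have changed it. A pseudocount cannot reverse a ratio, and the rescalings moved log2 ratios by 0.046 at most, less than the smallest (-0.06, Ifnar1).

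**Figure D3:**
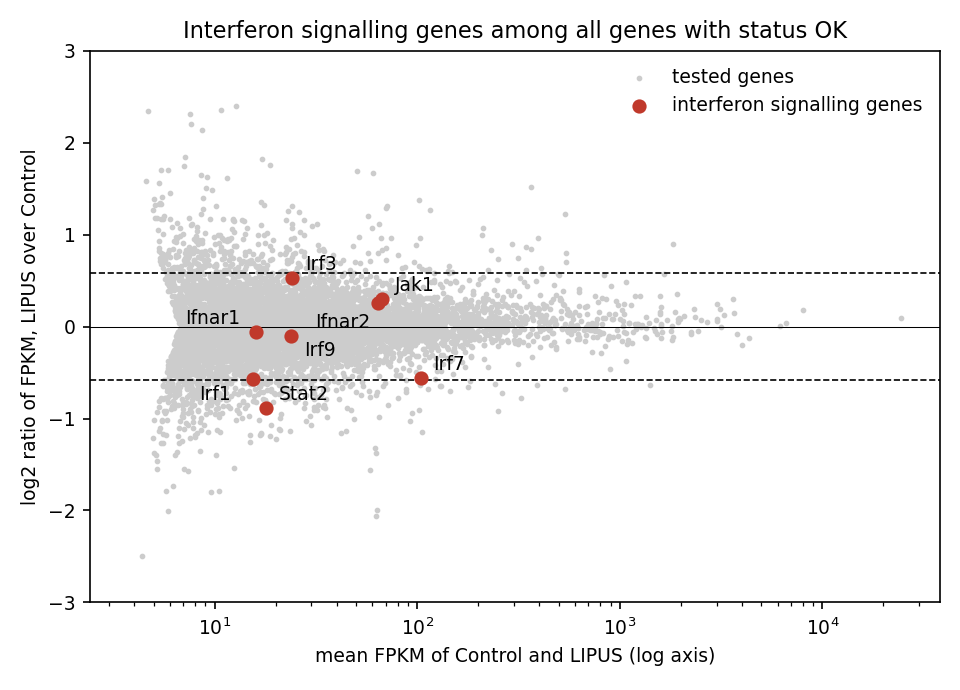
Log2 ratio of pooled FPKM (LIPUS over Control) against mean FPKM on a log axis, for the genes with status OK (grey) and the 8 signalling genes among them (red). Dashed lines mark 1.5-fold, and 5 genes whose ratios lie beyond 3 or have a 0 in 1 group are not drawn. Stat2 lies below the lower line, Irf1 (-0.57) and Irf7 (-0.56) lie just above it, and Irf3 lies just under the upper one.

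The spread of the ratios depended on the level of a gene, which bears on how unusual each value was. Among genes with a mean of 10 to 30 FPKM, the range that holds Stat2, Irf1, Irf3, Irf9 and Ifnar1, 4.19% were at least 1.5-fold lower and 4.30% at least 1.5-fold higher. From 30 to 100 FPKM, the range of Ifnar2 and Jak1, the shares were 2.51% and 2.15%. Among genes of 100 FPKM or more, the range of Irf7, 1.68% were at least 1.5-fold lower and 2.94% higher. Over all genes with status OK the median log2 ratio was 0.00425, and the values lay between -0.75 and 0.77 with 2.5% left out at each end. Stat2 lay outside that range and the other tested signalling genes inside it. The median of the 8 genes was -0.08, with 5 genes below 0 and 3 above it.

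The order of the pooled levels changed in its middle. In Control it ran Irf7, Jak1, Ifnar2, Irf9, Stat2, Irf3, Irf1, Ifnar1 and Tyk2, and in LIPUS it ran Irf7, Jak1, Ifnar2, Irf3, Irf9, Ifnar1, Stat2, Irf1 and Tyk2. The highest gene exceeded the lowest 52.6 times in Control and 22.0 times in LIPUS. Which neighbours in these orders differ beyond the spread between cultures cannot be said from pooled values.

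Other genes of the pathway were read from lists chosen with earlier results of these data known. The other receptor chains with status OK, Ifngr1, Ifngr2 and Il10rb, had log2 ratios from -0.06 to 0.25, and 0 of these 3 were called, where 4.71% of all genes with status OK were lower and 4.70% higher. Of the other Jak kinases and Stat factors reported here, 5 had status OK and 0 of these were called, beside the same shares of all genes. Counts of 0 in lists this short do not set them apart from other genes. Stat5b, a transducer of growth hormone and cytokine signals, had a log2 ratio of 0.39, and Stat6, a transducer of interleukin-4 signals, had one of -0.36. Jak2, a kinase of hormone and cytokine receptors, had 8.02 FPKM in Control and 6.76 FPKM in LIPUS (-0.25). A further list joined other Irf genes with the genes of Irf2-binding proteins, which are not interferon regulatory factors themselves. Of its genes reported here, 5 had status OK and 1 was called lower, beside the 4.71% of all genes. This was Irf5, with 29.5 FPKM in Control and 17.2 FPKM in LIPUS (-0.78). The other Irf gene with that status, Irf2, a repressor that competes with Irf1 for its sites, had a log2 ratio of -0.43, while Irf4 and Irf8 are listed at 0 in both groups. The Irf2-binding protein genes Irf2bp1, Irf2bp2 and Irf2bpl had log2 ratios of -0.13, 0.27 and 0.55.

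The ligands were almost undetected at this time. Of 21 interferon genes, 19 are listed at 0 in both groups and 0 had status OK. Ifnb1, the interferon made first in most cells, had 0.646 FPKM in Control and 0.367 FPKM in LIPUS, and Ifna4 had 0.607 FPKM in Control and is listed at 0 in LIPUS. A value of 0 in such a table can be a failed estimate.

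Negative regulators of the pathway went both ways. Of 10 with status OK, 1 was called lower and 2 higher, where 4.71% of all genes with status OK were lower and 4.70% higher. Usp18, which displaces Jak1 from Ifnar2 and is an interferon-stimulated gene, had 85.9 FPKM in Control and 43.5 FPKM in LIPUS (log2 ratio -0.98). Socs1, an inhibitor of Jak kinases, had 6.71 FPKM in Control and 11.0 FPKM in LIPUS (0.72), and the related Socs3 had 73.2 and 119 FPKM (0.71). The median of the 10 genes was 0.17.

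Of the genes that act upstream of Irf3 and Irf7, 14 had status OK, and 3 were called lower and 0 higher, beside the same 4.71% and 4.70% of all genes. These were the RNA sensors and their relatives Dhx58 (log2 ratio -0.89), Ddx58 (-0.88) and Tlr3 (-0.76), and the median of the 14 was -0.09. Of 28 interferon-stimulated genes with status OK, 23 were called lower and 0 higher, or 82.1% against 4.71% of all genes, with a median log2 ratio of -0.88. Another 4 genes of the list had status NOTEST, with log2 ratios from -2.29 to -0.15. Some called genes, Ifit3b among them (16.4 FPKM in Control, 4.72 FPKM in LIPUS), reached 6.70 FPKM only in Control. Genes kept in that way can only be lower. This list was chosen on results of these samples and is not independent evidence of a direction. Stat2, at -0.88, lay at the median of that list, and Irf7, Irf1 and Irf9 lay above it. The lowest ratios in it belonged to Ifit3b (-1.79), Ifit3 (-1.56) and Ifit1 (-1.38), related genes between which reads may be split.

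**Figure D4:**
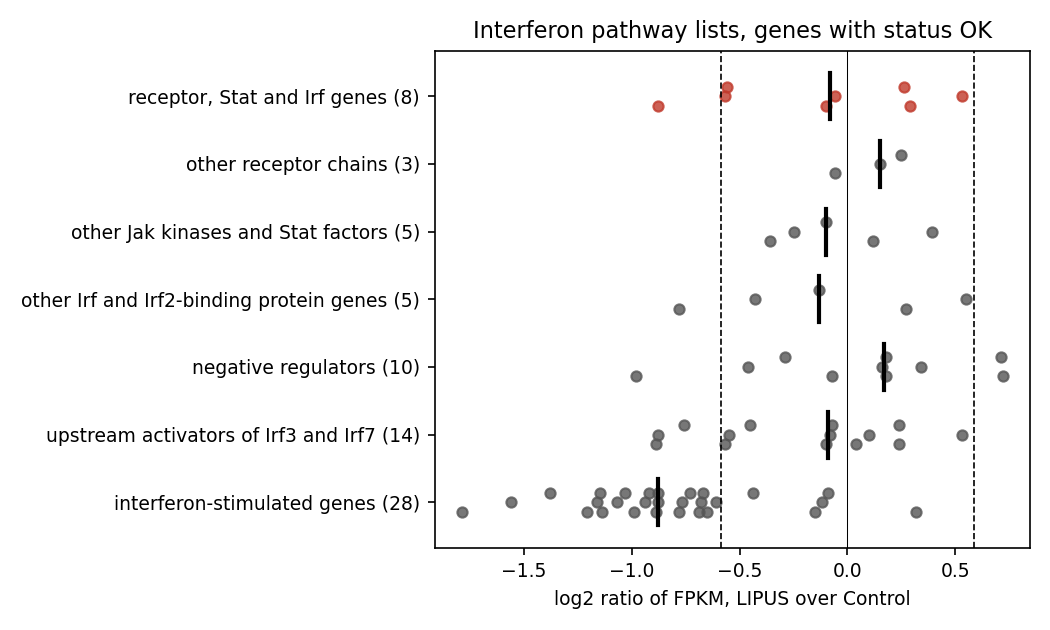
Log2 ratio of pooled FPKM (LIPUS over Control) of each gene with status OK, for the 8 tested receptor, Stat and Irf genes (red) and for 6 lists of pathway genes (grey). Thick bars are medians, dashed lines mark 1.5-fold and each list's number of genes is in brackets. The interferon-stimulated genes, a list chosen on results of these samples, centre on -0.88, where Stat2 also lies. The medians of the other lists lie between -0.13 and 0.17.

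ISRE letters were also set against the ratios of all genes. Of the 8145 genes with status OK, 6367 had a promoter window, and 4.55% of these were at least 1.5-fold lower and 4.27% at least 1.5-fold higher in LIPUS. Of the 256 with ISRE letters, Stat2 among them, 34 were at least 1.5-fold lower, or 13.3%, and 13 were at least 1.5-fold higher, or 5.08%. Of the 505 with GAS letters, Irf1, Ifnar1 and Ifnar2 among them, 29 were at least 1.5-fold lower, or 5.74%, and 25 at least 1.5-fold higher, or 4.95%. These are shares over genes of the same pooled comparison and carry no test. The median log2 ratio was -0.05 over the genes with ISRE letters and 0.01 over those with GAS letters. The genes with ISRE letters overlap the interferon-stimulated list, which was chosen on results of these samples. In that list 11 of 25 genes with a window hold ISRE letters, and their part in the 34 was not counted.

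The identity of the cells was read from marker genes. Of 14 markers of immune and endothelial cells, 10 are listed at 0 in both groups, including Ptprc, the pan-leukocyte marker, and Cdh5, the endothelial cadherin. Their summed level was 14.2 FPKM in Control and 12.6 FPKM in LIPUS, mostly from Cd14 (8.19 and 10.6 FPKM) and Cd68 (5.32 and 1.72 FPKM). Their part in the ratios of the interferon signalling genes was not tested. Of 12 osteocyte and osteoblast-lineage genes, 8 had status OK, with a median log2 ratio of -0.13, and 2 were called lower and 1 higher, beside 4.71% and 4.70% of all genes with status OK. In this list Sost, Mepe and Fgf23, markers of mature osteocytes, are listed at 0 in both groups, which can also be a failed estimate. Phex is listed at 0 in Control and at 0.190 FPKM in LIPUS, with status NOTEST. Dmp1, an osteocyte matrix protein gene, had 3.04 FPKM in Control and 7.65 FPKM in LIPUS (1.33), while Runx2 (-0.72) and Alpl (-0.63) were lower. Dmp1, the gene called higher, reached 6.70 FPKM, the least among tested genes, only in LIPUS. The 5 with status OK that were not called were Pdpn (0.44), Gja1 (-0.06), Spp1 (-0.12), Col1a2 (-0.14) and Col1a1 (-0.29). In such bulk RNA, fewer cells of a kind and less RNA per cell cannot be told apart.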

How the data were processed

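MLO-Y4 RNA was sequenced from 3 LIPUS and 3 Control cultures, grouped by their sample titles. According to the methods, stranded mRNA libraries gave paired reads of 100 bases. Trimmomatic 0.36 was used for trimming, and TopHat 2.1.0 with bowtie 2.2.6.0 for alignment to GRCm38. The authors deposited 1 FPKM value per group and gene, pooled over its libraries, made by Cufflinks with Ensembl transcripts. The processing notes name Cufflinks 2.1.1 and Cuffdiff, while the methods name a later Cufflinks release. The table's fold change, test statistic, p-value and q-value columns hold the authors' own comparison and were not used here. It holds no counts, so depth is unknown from it, and no replicate error, interval or test could be computed.

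Each column was matched to its group by the group names in the table. Log2 ratios of LIPUS over Control were computed without a pseudocount, 2 tested genes having a 0 in 1 group, and genes with status OK at least 1.5-fold apart were called. FPKM classes used the mean of both groups. Gene positions came from GENCODE M21 by gene identifier, neighbours were sought within 5 kb, and promoters came from RefSeq by symbol. Other settings tried were pseudocounts of 1 and 0.1, 3 rescalings, limits of 0.32 and 1 on the log2 scale, and minimum FPKM values of 1 and 10. The 9 genes were all named, then the 3 largest absolute log2 ratios of each pathway list and every gene overlapping or close to a member where its values bear on it. Ifnb1, Ifna4, Cd68, Irf2bp1, Irf2bp2, the uncalled osteocyte and osteoblast-lineage genes and the genes listed at 0 fall outside this rule and were named after their values were seen. The 9 genes and all lists were chosen with earlier results of these data known, and the shares of genes with motif letters that were lower or higher were added after the motif counts. Some genes of the pathway lists are not reported here. The calculations were tested on simulated data. Python 3.11.15, numpy 2.4.6, pandas 2.3.3 and matplotlib 3.10.9 were used.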

Additional observations from a re-analysis of the deposited data

How the results depend on the processing

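The 5 pseudocount and scaling alternatives were too small to change the direction of any of the 9 genes, so the kept signs are no check. Stat2 stayed at least 1.5-fold lower in each, with log2 ratios from -0.93 to -0.83. The number of genes at least 1.5-fold lower, 1 of 8, became 3 with a limit of 0.32 on the log2 scale (13.4% of all genes), 0 with a 2-fold limit (0.945%) and 3 after rescaling to the same sum (5.70%). The number at least 1.5-fold higher, 0, became 1 with the limit of 0.32 (Irf3, beside 13.6% of all genes) and 1 when any gene of at least 1 FPKM was counted (Tyk2, beside 9.25% of 11999 genes). The median of the other Jak kinases and Stat factors moved from -0.10 to 0.01 over the 6 genes of at least 1 FPKM with a pseudocount of 1, and that of the immune and endothelial markers from 0.38, from Cd14 alone, to -0.44 over 2 markers in the same setting. These moves follow from the limit, the genes kept or the scale. No other median of the pathway or cell type lists outside the 9 genes moved by 0.1 or more. The interferon ligands gave no median, since 0 of them had status OK. No paired analysis was possible because the table holds 1 pooled value per group, and for the same reason no culture could be left out. Depth cannot be read from the pooled values, and the missing replicate values limit how far any ratio can be read.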
